A study of Mus musculus with 79 samples.

Results

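The medial prefrontal cortex (mPFC) of mice that had gone through chronic social defeat stress (CSDS) was compared between 9 animals given ketamine and 10 given saline. These 19 libraries were chosen by region, stress group and treatment as the sample labels give them, out of 79 libraries of mPFC and ventral hippocampus (vHipp) in the series. All animals were group-housed male CD-1 mice, an outbred stock, of 9 to 10 weeks. Both groups went through 21 days of CSDS with regrouping in the home cage after each defeat and then lived in a social box (SB), an arena that houses 4 mice, for 4 days. They received a single injection of (R,S)-ketamine (10 mg/kg) or of saline and stayed in the SB for 7 more days before the tissue was taken, so the comparison asks what remains of the drug's effect after a week. Dominant and subordinate mice are mixed in each group, because rank and SB are not in the labels. One more defeated animal that got ketamine, mouse 5, entered the vHipp comparison alone. Each animal carries a mouse number, and the libraries come from separate animals.

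Ketamine is a channel blocker of the NMDA receptor, a glutamate-gated cation channel built from an obligatory GluN1 subunit and GluN2 or GluN3 subunits. Within hours of a dose, it is known for a burst of cortical glutamate release, activity of AMPA receptors, release of the growth factor BDNF acting on its receptor TrkB, mTOR-dependent protein synthesis and formation of dendritic spines in the mPFC, where chronic stress thins them out. The gene groups below follow that chain, from the drug's target to synaptic partners, plasticity and stress hormone signaling, and then to energy metabolism and the cell types of the tissue.

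Library totals lay between 15.5 and 34.5 M counts (M, mega), with a median of 18.5 M in ketamine-treated and 19.8 M in saline-treated mice (exact permutation test of the means, two-sided, p = 0.0988). Between 24906 and 27525 genes were detected per library, on average 471 fewer with ketamine (exact permutation test, two-sided, p = 0.083). Leaving out saline mouse 13 or saline mouse 19 took both of these p-values below 0.05, to 0.0345 and 0.0309 without mouse 13. Mitochondrially encoded transcripts took 3.69 ± 0.426% of the counts with ketamine (SD, n = 9) and 3.75 ± 0.458% with saline (SD, n = 10), and the 100 most abundant genes took 16.3 ± 0.436% and 16.4 ± 0.453%. The libraries were rich in excitatory neuron markers and low in choroid plexus markers. The excitatory neuron markers, among them the vesicular glutamate transporter Slc17a7, summed to 8133 to 10704 CPM (counts scaled to library size with TMM factors), and the choroid plexus and ependymal markers to 7.40 to 19.2 CPM. In principal components of 15692 genes, the first 3 components held 20.7%, 16.5% and 11.0% of the variance, and the groups overlapped on each. On the second component, ketamine mouse 1 stood apart at 39.4, where the other 18 mice lay between -17.25 and 11.26.

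No gene differed between ketamine-treated and saline-treated CSDS mice after adjustment. Of 28993 genes tested with edgeR's quasi-likelihood method, 0 had an adjusted p under 0.05 (0% of genes), and the lowest adjusted p was 0.993. The unadjusted p was below 0.05 for 1252 genes (4.32%). Those with a higher level in ketamine-treated mice were 1.81% of the genes tested, and 726 had a lower one (2.50%). Among the 15692 genes with a mean of at least 1 CPM, it was 506 genes or 3.22%, and in 0 of them (0%) did the 2 groups of mice not overlap. DESeq2 also gave 0 genes, with 932 at an unadjusted p under 0.05. Genes are therefore described here by their levels in the mice, the log2 fold change (LFC, ketamine against saline, so that positive values are higher with ketamine) with its standard error (SE) and the unadjusted p of that edgeR test. The measurements bound what was there. For the 10345 genes with a mean of at least 10 CPM, the median SE of the LFC was 0.06, and in 77.5% of them the 95% confidence interval of the LFC lay inside -0.25 to 0.25. The median LFC of all genes tested was -0.00.

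The small differences followed gene length. When the 10345 genes of at least 10 CPM were ordered by the gene length deposited with the counts and cut into 5 bins of near equal size, the median LFC was 0.04 in the shortest bin (57 to 2873 bases), 0.01 in bin 2, 0.00 in bin 3, -0.01 in bin 4 and -0.04 in the longest (8404 to 123179 bases). The LFC was positive in 75.8% of the shortest genes and in 24.7% of the longest. Without mouse 1 the medians ran from 0.01 in the shortest to -0.02 in the longest bin. Per mouse, the median level of the shortest bin against the longest, relative to the mean of the 19 mice, ran from -0.17 to 0.44 on the log2 scale with ketamine (median 0.04) and from -0.18 to 0.21 with saline (median -0.02), with mouse 1 the highest. The groups overlapped over most of this range. The part of this gradient in the values of the gene groups below was not tested, apart from a comparison of oxidative phosphorylation genes with other genes of their lengths.

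**Figure D1:**
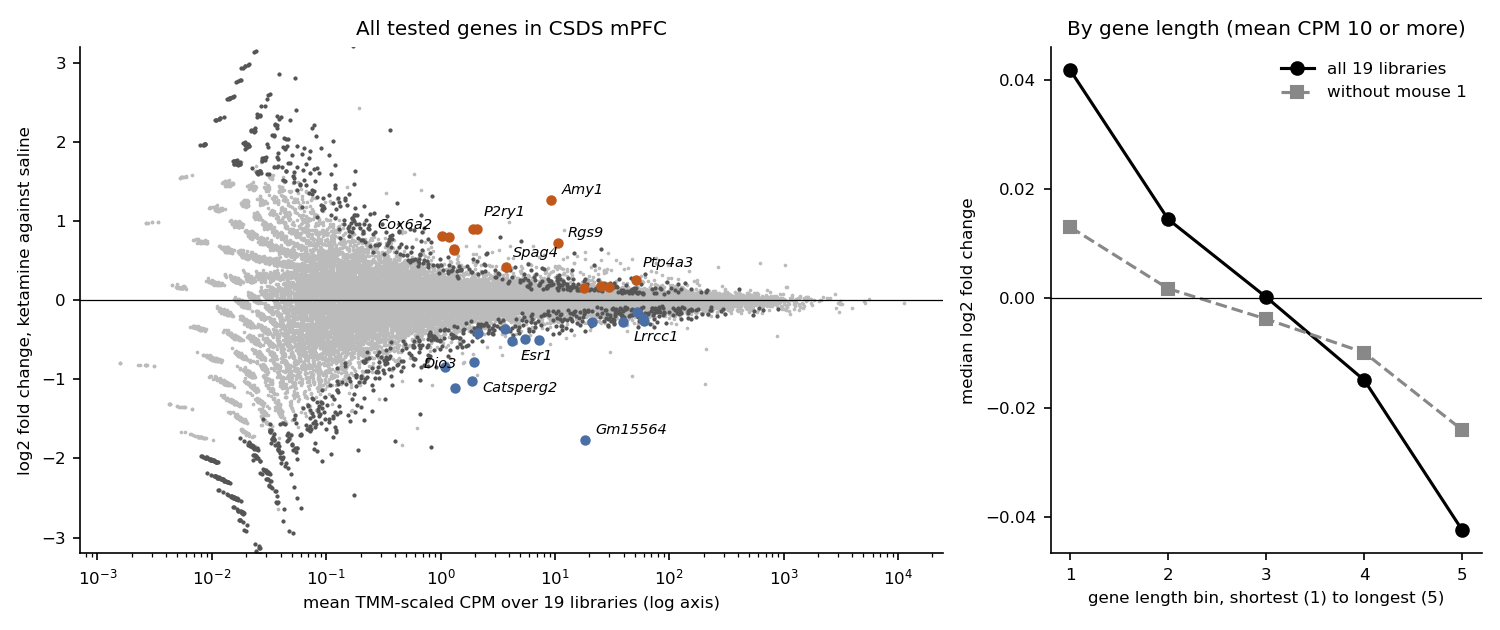
Left, each point is 1 of 28993 genes, with its mean level over the 19 libraries on a log axis and its log2 fold change. Dark points have an unadjusted p under 0.05, colored points are the genes of smallest p and of largest change named in the text (orange higher, blue lower with ketamine), and 10 genes lie outside the vertical range. Right, the median log2 fold change in each of the 5 bins of gene length, which goes from 0.04 to -0.04 with all 19 libraries and from 0.01 to -0.02 without mouse 1.

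For the receptor that ketamine blocks, transcript levels of the main subunits were close in the 2 groups. Grin1, which encodes the obligatory subunit GluN1, had 544, 626 and 677 CPM with ketamine (lowest, median and highest mouse) and 586, 639 and 705 CPM with saline. The ranges overlapped, with 1 ketamine-treated mouse below all saline-treated mice and an LFC of -0.02 (95% confidence interval -0.11 to 0.07). Grin2a, the GluN2A subunit of the mature receptor, had an LFC of -0.02 (-0.19 to 0.15), and Grin2d, found mainly in interneurons, one of -0.00 (-0.12 to 0.12). Grin2b, the GluN2B subunit, had 436, 602 and 775 CPM with ketamine and 522, 700 and 816 CPM with saline. Its median mouse was lower with ketamine and 2 ketamine-treated mice lay below all saline-treated mice, with an LFC of -0.16 (-0.34 to 0.03, p = 0.0937). Grin3a encodes GluN3A, a subunit that lowers calcium flow through the receptor. It was the 1 of 7 subunits with an unadjusted p under 0.05 (4.32% of all genes tested), at 54.98, 77.7 and 90.3 CPM with ketamine and 72.9, 83.7 and 95.3 CPM with saline (LFC -0.15, SE 0.07, p = 0.0405). Of the 9 ketamine-treated mice, 4 were below every saline-treated mouse and the others were within the saline range. Without mice 1 to 4 the p of Grin3a was 0.246. Grin2b (24842 bases) and Grin3a (12275 bases) belong to the bin of longest genes, as do Grin2a (17933 bases) and Grin1 (9700 bases). Grin2c had an LFC of 0.11 (-0.07 to 0.29), and Grin3b, at 0.218 CPM on average, was too low for a useful bound (-0.83 to 0.66). Per kilobase of gene length, the order of levels over the 19 mice was Grin1 at 65.5 CPM, Grin2b at 26.3, Grin2a at 12.7, Grin2c at 11.6, Grin3a at 6.44, Grin2d at 4.12 and Grin3b at 0.066.

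**Figure D2:**
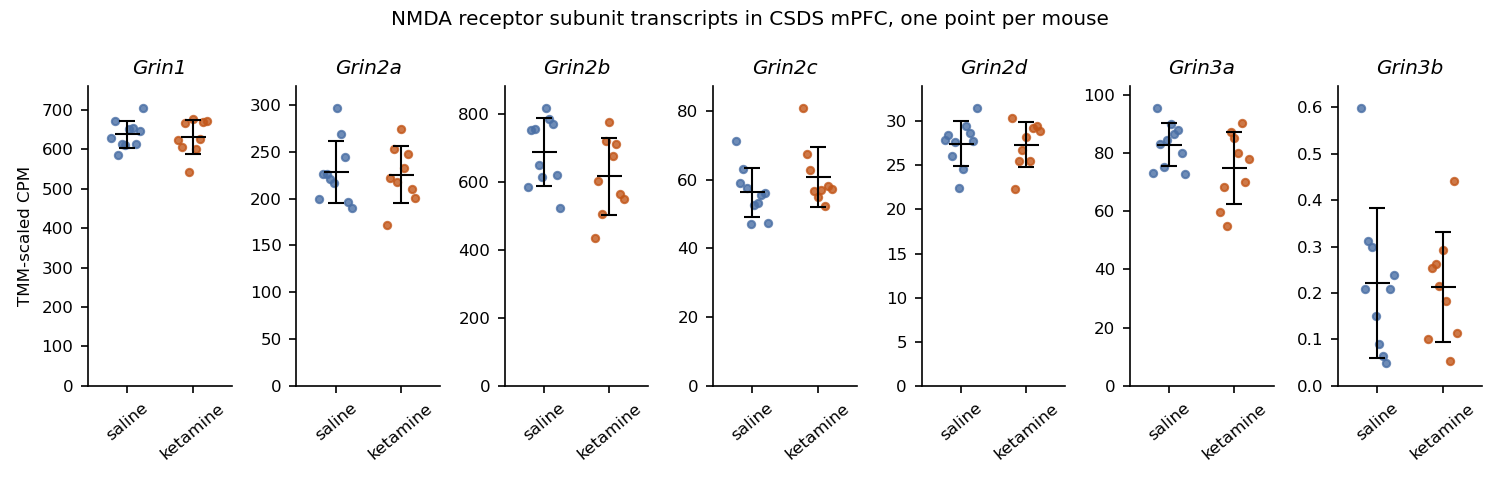
TMM-scaled CPM of the 7 NMDA receptor subunits in each CSDS mouse, 10 with saline (blue) and 9 with ketamine (orange). Black marks are the mean and SD, each vertical axis starts at 0, and the points of the groups overlap for each subunit.

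Among the other glutamate receptors, differences were of the same small size. None of the 9 AMPA and kainate receptor subunits had an unadjusted p under 0.05, 8 of 9 had a negative LFC, and their median LFC was -0.06. Gria1 and Gria2, the main AMPA receptor subunits of cortical pyramidal cells, had LFCs of -0.07 (-0.18 to 0.03) and -0.15 (-0.32 to 0.03). Of the metabotropic receptors, Grm5, which couples to Gq, had an LFC of -0.20 (-0.41 to 0.01), and Grm2, an inhibitory presynaptic receptor, one of 0.13 (-0.00 to 0.27). None of 30 postsynaptic scaffold and adhesion genes (median -0.01, and -0.04 without mouse 1) had a p under 0.05, and 23 of them had intervals inside -0.25 to 0.25, with Dlg4, the scaffold PSD-95, at -0.01 (-0.13 to 0.11). Homer2, which links mGlu receptors to the scaffold, was at -0.19 (-0.39 to 0.00). Of 21 synaptic vesicle and release genes, 1 had a p under 0.05, a share near the 4.32% of all genes tested. Syn3, a synapsin that coats synaptic vesicles, had 11.3, 14.5 and 17.3 CPM with ketamine and 14.6, 17.2 and 20.4 CPM with saline (LFC -0.23, SE 0.08, p = 0.0046). In 5 of 9 ketamine-treated mice Syn3 was below the lowest saline-treated mouse. These lists have median gene lengths between 5977 and 7031 bases.

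On the inhibitory side, GABA-A receptor subunits had mostly negative differences, and interneuron markers had both signs. Of 12 GABA-A receptor subunits, 10 had a negative LFC (median -0.08, and -0.05 without mouse 1), and 2 had a p under 0.05, against 4.32% of all genes tested. The list's median gene length of 6451 bases falls in bin 4 of the length gradient, where 40.3% of genes had a positive LFC. Gabra2, the alpha2 subunit, had 130.9, 155 and 193 CPM with ketamine and 126.3, 184 and 241 CPM with saline (LFC -0.21, SE 0.09, p = 0.0246), and the groups overlapped across the whole ketamine range. Gabra4, an extrasynaptic subunit, had an LFC of -0.10 (SE 0.05, p = 0.0453). Of 20 interneuron markers, 2 had a p under 0.05. Sst, the neuropeptide somatostatin, had 118.2, 144.8 and 172 CPM with ketamine and 98.7, 119.3 and 161 CPM with saline (LFC 0.21, SE 0.10, p = 0.0417), and 3 ketamine-treated mice were above all saline-treated ones. Slc32a1, the vesicular GABA transporter, had an LFC of 0.16 (SE 0.08, p = 0.0496). The p stayed under 0.05 in 16 of 32 alternatives for Sst and in 8 of 32 for Slc32a1. The neuropeptide genes Cort and Npy had LFCs of 0.34 (-0.14 to 0.82) and 0.16 (-0.06 to 0.38), and Pvalb, of the fast-spiking cells, had 0.26 (-0.10 to 0.61), each with an interval that includes 0. The list's median LFC was 0.02 (-0.01 without mouse 1), with 11 positive and 9 negative members. In bulk tissue, fewer cells of a type and less RNA per cell cannot be told apart.

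The plasticity genes that act downstream of ketamine in its first hours were close between the groups at this time. Bdnf had 20.5 CPM with ketamine and 20.0 CPM with saline on average (LFC 0.03, 95% interval -0.16 to 0.22). Ntrk2, its receptor TrkB, was at -0.08 (-0.19 to 0.03), and Mtor at -0.07 (-0.19 to 0.04). Of 25 genes of the BDNF, TrkB and mTOR pathways, 19 had intervals inside -0.25 to 0.25. Immediate early genes, which neurons transcribe within minutes of activity, were noisier. Of 21, 16 had a positive LFC, and the median was 0.09 (0.03 to 0.14 when single mice were left out). A p under 0.05, which 4.32% of all genes had, was found for 1 of them, Ier5, with 49.5, 59.9 and 71.1 CPM with ketamine and 46.8, 51.2 and 62.7 CPM with saline (LFC 0.20, SE 0.08, p = 0.02). Fos had an LFC of 0.31 with an interval of -0.30 to 0.92, Egr1 of 0.19 (-0.12 to 0.51) and Arc of 0.07 (-0.50 to 0.64), so the data bound these genes only loosely.

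Of 20 glucocorticoid and corticotropin-releasing hormone (CRH) genes, 2 had a p under 0.05, against 4.32% of all genes tested. Crhr1, the main CRH receptor of the cortex, had 24.6, 33.8 and 36.5 CPM with ketamine and 24.0, 28.4 and 32.3 CPM with saline (LFC 0.21, SE 0.08, p = 0.0131). In 5 of 9 ketamine-treated mice it was above every saline-treated mouse, and the lowest mice of both groups had nearly the same level. Crhbp, the secreted protein that binds CRH, had 17.3, 20.1 and 24.2 CPM with ketamine and 10.9, 15.0 and 23.1 CPM with saline (LFC 0.27, SE 0.12, p = 0.0259), with a p under 0.05 in 24 of 32 alternatives and of 0.208 without mice 5 to 8. Nr3c1, the glucocorticoid receptor, was at -0.03 (-0.20 to 0.13), and Fkbp5, a co-chaperone that glucocorticoids induce, at -0.02 (-0.18 to 0.14). The 20 genes of this list had a median LFC of 0.04 (0.02 without mouse 1) and 12 positive members. Of 24 monoamine and opioid receptors and peptides, the 1 with a p under 0.05 was Htr1b, a presynaptic serotonin receptor, with 6.81, 10.1 and 12.9 CPM with ketamine and 7.26, 13.1 and 17.0 CPM with saline (LFC -0.33, SE 0.14, p = 0.0259). Mmp16, a membrane-bound matrix protease, was the 1 of 15 perineuronal net and matrix genes (LFC -0.24, SE 0.10, p = 0.0252). The 4 KCNQ channels, which carry the M-current and have been linked to ketamine's lasting action, all had intervals inside -0.25 to 0.25, with an LFC of -0.06 for Kcnq3. None of 18 cortical layer markers tested (median -0.01 without mouse 1), 18 circadian clock genes, 21 heat shock and chaperone genes, 19 cholesterol synthesis genes or 20 interferon-stimulated genes had a p under 0.05, and their median LFCs were -0.03, -0.00, 0.02, -0.01 and 0.07. The interferon-stimulated median ran from -0.02 to 0.12 when single mice were left out, and the clock and heat shock medians also took both signs.

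Nuclear genes of oxidative phosphorylation, the subunits of the mitochondrial respiratory chain and ATP synthase, mostly had positive differences. Of 82 tested, 74 had a positive LFC and the median was 0.09. Of these genes, 6 had an unadjusted p under 0.05 and a higher level with ketamine (1.81% of all genes tested), and 0 a lower one. Ndufa8, of complex I, had 64.3, 75.2 and 92.2 CPM with ketamine and 59.2, 66.8 and 80.02 CPM with saline (LFC 0.14, SE 0.06, p = 0.0185). The others were Ndufc1 and Ndufv3 of complex I, Cox5a of complex IV, Atp5j of ATP synthase and Cox6a2, the heart and muscle isoform of a complex IV subunit, whose level was far lower, at 1.64 CPM in the median ketamine-treated and 0.845 CPM in the median saline-treated mouse (LFC 0.80, SE 0.26, p = 0.00348). The genes are short, with a median length of 1559.5 bases. Among genes of at least 10 CPM with the middle range of lengths of this list, the median LFC was 0.09 for 39 members and 0.04 for 1303 other genes, and without mouse 1 it was 0.05 and 0.01. The LFC was positive in 97.4% of these members and in 76.2% of the other genes. Per mouse, the median deviation of the list from the mean of the 19 mice ran from -0.16 to 0.21 with ketamine and from -0.25 to 0.20 with saline on the log2 scale. Mouse 1 was the highest of the ketamine-treated mice, and the groups overlapped over nearly the whole range. Cytosolic ribosomal protein genes, short as well, had a median LFC of 0.05 with 71 of 79 positive, and -0.00 without mouse 1, and 1 of them had a p under 0.05, Rpl30 (LFC 0.34, SE 0.16, p = 0.0397), a gene with processed copies elsewhere in the genome that may share reads. The 13 protein-coding genes of the mitochondrial genome had a median LFC of -0.06 (-0.15 to -0.00 when single mice were left out), with 10 negative members and none with a p under 0.05.

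**Figure D3:**
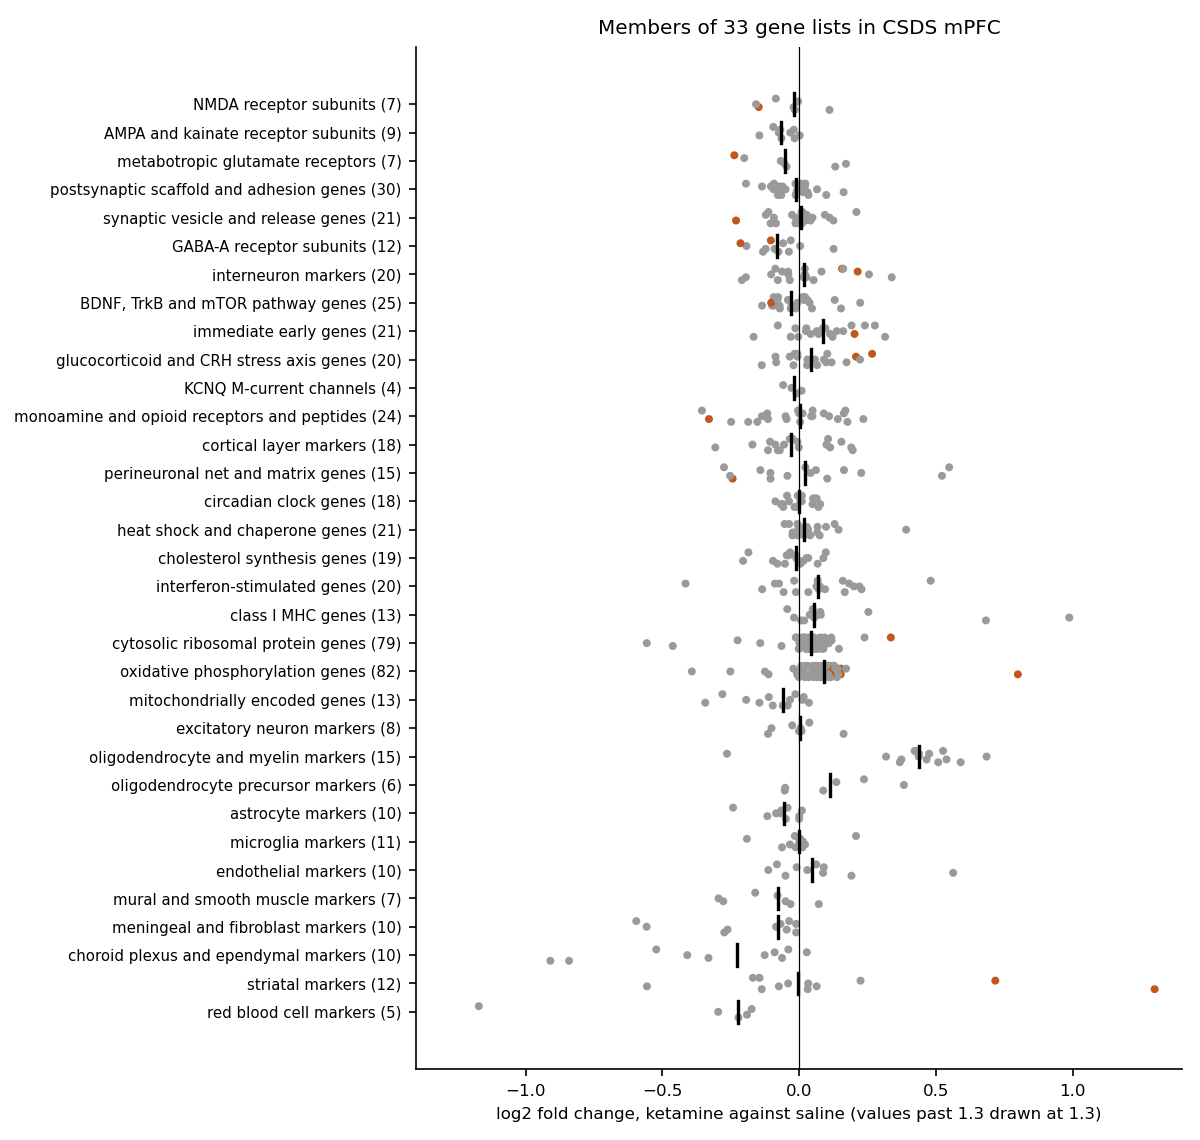
Log2 fold change of each member of 33 gene lists, with the number tested in brackets, 1 point per gene and a black bar at the list's median. Orange points have an unadjusted p under 0.05. Most medians lie between -0.1 and 0.1, the oxidative phosphorylation genes gather to the right of 0, and the myelin genes lie far to the right without an orange point.

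Markers of myelin varied widely between mice. Of the cell type lists, the interneuron and striatal ones alone had members with a p under 0.05. The 15 oligodendrocyte and myelin markers summed to 621, 2565 and 6846 CPM with ketamine (lowest, median and highest mouse) and to 690, 1663 and 5612 CPM with saline. Ketamine mouse 6 was the highest and saline mouse 2 the next, and the groups overlapped throughout. Of the 15 markers, 14 had a positive LFC and the median was 0.44, with 0.44 for Mbp, the gene of myelin basic protein (95% interval -0.35 to 1.23). The median was between 0.14 and 0.80 when single mice were left out. The marker sums of the other types overlapped as well, with 4220 to 5959 CPM and 4249 to 6706 CPM for astrocytes, 303 to 467 CPM and 304 to 432 CPM for microglia, 212 to 418 CPM and 225 to 349 CPM for endothelial cells, 160 to 365 CPM and 175 to 450 CPM for mural and smooth muscle cells, 49.4 to 229 CPM and 56.5 to 237 CPM for meningeal and fibroblast cells, and 58.3 to 231 CPM and 84.9 to 317 CPM for red blood cells, with ketamine and saline. The median LFCs of these 6 lists were -0.06, 0.00, 0.05, -0.08, -0.08 and -0.22. Without mouse 1, they were -0.08 for microglia, -0.14 for mural, -0.13 for meningeal and -0.39 for red blood cell markers. When single mice were left out, the microglia (-0.08 to 0.03), endothelial (-0.05 to 0.10), mural (-0.15 to 0.00) and meningeal (-0.30 to 0.04) medians took both signs, and the red blood cell median ran from -0.42 to -0.03. The oligodendrocyte precursor list was at 0.11, and the choroid plexus and ependymal list at -0.23, with 8 of its 10 genes below 1 CPM on average.

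Rgs9 had the smallest p of the cell type markers. It encodes a GTPase-accelerating protein best known from the striatum and the retina, and lies on chromosome 11 (109225355 to 109298129, minus strand, GRCm38). It had 7.29, 11.6 and 20.3 CPM with ketamine and 5.56, 7.27 and 13.5 CPM with saline (LFC 0.72, SE 0.22, p = 0.0024), and it was higher in ketamine-treated mice on average in 5 of 5 runs of 4 consecutive mouse numbers. These runs are parts of the libraries that gave the p and do not replicate it. Of the ketamine-treated mice, 3 were above all saline-treated mice. The other striatal markers had values in both directions. The 12 striatal markers summed to 179 to 229 CPM with ketamine and 192 to 245 CPM with saline, 6 had a positive and 6 a negative LFC, and the median was -0.00 (-0.05 to 0.04 when single mice were left out). Ppp1r1b, the phosphatase regulator DARPP-32 of striatal projection neurons, was at 0.03 on the log2 scale, Adora2a, an adenosine receptor, at -0.17, and Drd1, the dopamine D1 receptor, at -0.14. Isl1, a transcription factor of the same list, also had a p under 0.05 (p = 0.0225), from a mean of 0.0775 CPM and 0 counts in 11 of 19 libraries.

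The 10 genes of at least 1 CPM with the smallest p among those higher with ketamine were Mroh5, Spag4, Gm18101, Rgs9, Ptp4a3, Amy1, Cox6a2, Phlda1, Zfp27 and Fn3krp. Their LFCs ran from 0.16 for Zfp27 to 1.27 for Amy1. Spag4, which encodes a nuclear envelope protein of the SUN family, had 3.21, 4.33 and 5.80 CPM with ketamine and 2.18, 3.196 and 4.19 CPM with saline (LFC 0.42, SE 0.12, p = 0.00156). In 6 of 9 ketamine-treated mice it was above all saline-treated mice. Ptp4a3, a protein tyrosine phosphatase, had 49.7, 55.1 and 64.9 CPM with ketamine and 37.8, 47.4 and 56.9 CPM with saline (LFC 0.26, SE 0.08, p = 0.0028). It lies beside Mroh5 on chromosome 15, at 73723145 to 73758766 on the plus strand, and Mroh5 at 73760067 to 73839699 on the minus strand. Mroh5 had 1.16, 1.46 and 2.44 CPM with ketamine and 0.623, 1.10 and 1.48 CPM with saline (LFC 0.65, SE 0.19, p = 0.00122). These neighbors were thus both among the 10. Zfp27, a zinc finger gene, had a narrow range in both groups, 17.2, 19.1 and 20.9 CPM with ketamine and 14.9, 17.0 and 18.6 CPM with saline (LFC 0.16, SE 0.05, p = 0.0042), and 6 of 9 ketamine-treated mice were above all saline-treated mice.

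The 10 genes of smallest p among those lower with ketamine were Lrrcc1, Gm26871, Slc24a4, Esr1, Mamld1, Pot1b, Angpt1, Nmnat3, Zfp462 and Pign, and in each of them the ketamine mean was lower in 5 of 5 runs. The runs are parts of the libraries by which the genes were picked, so this is not replication. Among the 10 higher genes, Mroh5 was higher with ketamine in 4 of 5 runs. Lrrcc1, a centrosomal protein's gene on chromosome 3 (14533788 to 14572658, plus strand), had the smallest p of the genes named here. It had 29.5, 35.5 and 41.7 CPM with ketamine and 36.5, 43.3 and 49.9 CPM with saline (LFC -0.28, SE 0.07, p = 0.000511), and 5 of 9 ketamine-treated mice were below all saline-treated mice. Esr1, the estrogen receptor alpha, had 2.48, 3.41 and 4.75 CPM with ketamine and 2.73, 4.76 and 6.63 CPM with saline (LFC -0.52, SE 0.15, p = 0.00182), with all but 1 of the ketamine-treated mice inside the saline range. Angpt1, the angiopoietin that activates the endothelial receptor Tie2, had 4.25, 5.79 and 7.13 CPM with ketamine and 5.39, 8.04 and 13.3 CPM with saline (LFC -0.50, SE 0.15, p = 0.00211). Slc24a4, a potassium-dependent sodium-calcium exchanger, had 46.4, 54.3 and 63.0 CPM with ketamine and 49.3, 62.4 and 80.2 CPM with saline (LFC -0.26, SE 0.08, p = 0.00165). Pign, an enzyme of GPI anchor synthesis, had an LFC of -0.27 (SE 0.09) and Nmnat3, which makes NAD, one of -0.41 (SE 0.13). None of these 10 higher and 10 lower genes passed adjustment (adjusted p = 0.993 for each, Benjamini-Hochberg method on the edgeR test).

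**Figure D4:**
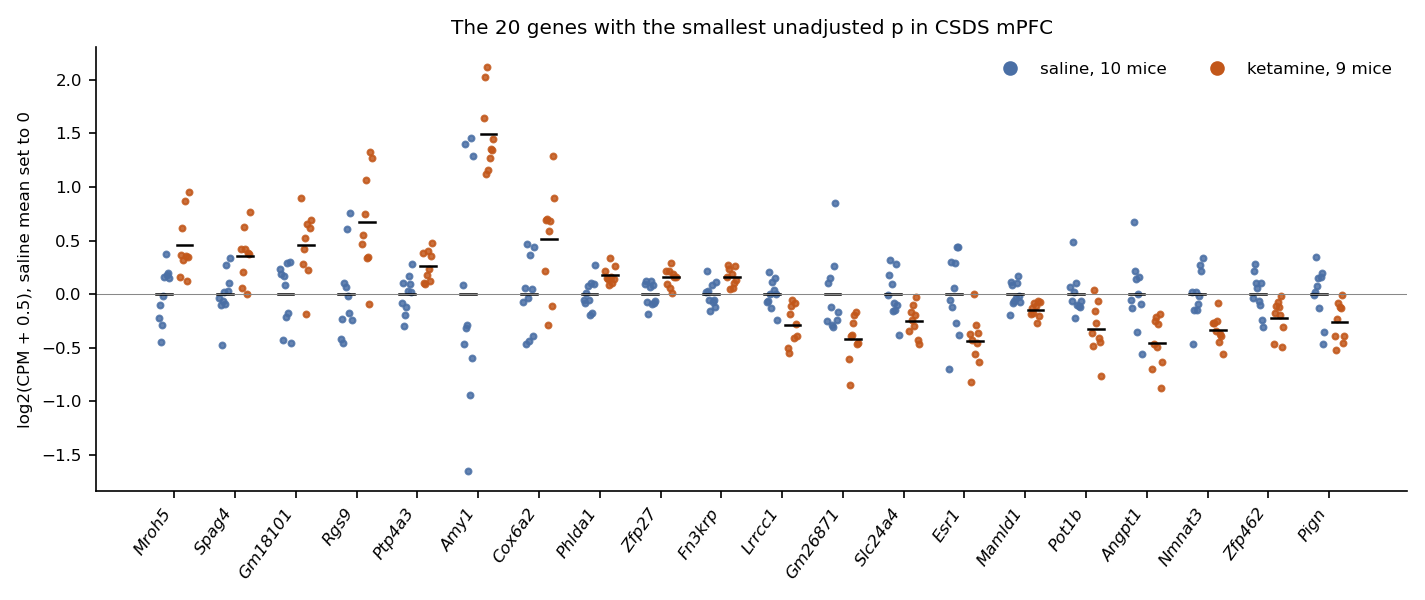
Levels in each CSDS mouse of the 10 genes higher and the 10 genes lower with ketamine that had the smallest unadjusted p among genes of at least 1 CPM, as log2(CPM + 0.5) with the saline mean of each gene set to 0. Blue points are the 10 saline-treated and orange points the 9 ketamine-treated mice, and black bars are group means. The groups overlap in every gene, and Amy1 has 7 saline-treated mice far below 3 others.

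Amy1, the gene of the starch-digesting amylase of saliva, had the highest LFC among genes of at least 1 CPM with a p under 0.05. It lies on chromosome 3 (113555710 to 113606699, minus strand), next to close copies, the pancreatic amylase genes, which may share its reads, and it overlaps Rnpc3 on the same strand. With ketamine, mice 6, 12, 14, 17, 16, 20, 1, 3 and 11 had 9.85, 10.2, 11.0, 11.6, 11.7, 12.5, 14.4, 19.0 and 20.2 CPM. With saline, mice 10, 13, 18, 4, 8, 9 and 2 had 1.02, 1.99, 2.66, 2.97, 3.34, 3.42 and 4.57 CPM, and mice 19, 7 and 15 had 11.2, 12.1 and 12.6 CPM. The saline-treated mice thus had 2 levels, and all 9 ketamine-treated mice were on the upper one or above it (LFC 1.27, SE 0.41, p = 0.00344). In the vHipp of the same animals, the 7 low mice were the lowest again, at 1.83 to 2.69 CPM, and the other 12 had 8.70 to 19.5 CPM, so that 19 of 19 mice were on the same side of the widest gap in both regions. The LFC of Amy1 in the vHipp was 1.53 (SE 0.35), from animals that are not independent of those in the mPFC. In CTRL mPFC it was -0.16 (SE 0.40). Rgs9 had 4 of its 5 highest mice in common between the regions, with an LFC of 0.70 (SE 0.20) in the vHipp, and Ptp4a3 had 3 of 5, with an LFC of 0.33 (SE 0.07). Such sharing varied among genes, with 3 of 5 for Spag4, Lrrcc1 and Slc17a7 too and 0 for Fn3krp.

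A few of the largest differences came from 1 or a few mice. P2ry1, a receptor for ADP, had 14.2 CPM in ketamine mouse 6, where the other 8 ketamine-treated mice had 1.21 to 1.97 CPM and the saline-treated mice 0.705 to 2.60 CPM. Its LFC was 0.90 (SE 0.43, p = 0.0408), and -0.15 without mouse 6. Gm15564, an RNA annotated as antisense that overlaps Parp9 and Kpna1, had 182 CPM in saline mouse 8, 34.6 CPM in mouse 4 and 32.7 CPM in mouse 9, and 2.69 to 7.73 CPM in the other 7 saline-treated mice. With ketamine it had 3.31, 5.35 and 26.3 CPM (LFC -1.77, SE 0.61, p = 0.00617). Without saline mouse 8 its p was 0.399. Mir6236 had its highest levels in the same 3 saline-treated mice, 268, 123.2 and 106.4 CPM in mice 8, 4 and 9, and in ketamine mouse 11 (77.04 CPM), which was also the highest ketamine-treated mouse for Gm15564. Dio3, the deiodinase that inactivates thyroid hormone, had 1.082, 1.42 and 2.17 CPM with ketamine and 0.718, 2.40 and 5.79 CPM with saline (LFC -0.78, SE 0.32, p = 0.0197). Here the ketamine-treated mice formed a tight group within a wide saline range. Catsperg2, a subunit of the sperm calcium channel, had an LFC of -1.02 (SE 0.37, p = 0.00861), Gm16083, antisense to Cd55, of -0.84 (SE 0.28) and E030013I19Rik, which overlaps Itga8, of -1.11 (SE 0.52). Whether reads were counted by strand is not given in the sources used here, so such overlapping pairs are uncertain. The remaining genes of largest positive LFC were G530011O06Rik (0.90, SE 0.36) and Gm9989 (0.81, SE 0.38).

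Other genes were present at 2 levels in both groups, and the group difference then depended on how many mice of each group were on the upper level. H2-T22, a class I gene of the major histocompatibility complex, had 8.65 to 10.2 CPM in 5 ketamine-treated mice and 0.581 to 0.828 CPM in the other 4. With saline, mice 15 and 2 had 9.77 and 11.9 CPM and the other 8 mice 0.267 to 1.04 CPM. The LFC was 0.99 (95% interval -0.27 to 2.25, p = 0.122). H2-T23, beside it on chromosome 17, was highest in the same 5 ketamine-treated and 2 saline-treated mice (LFC 0.68, -0.09 to 1.46). Srp54a, of the signal recognition particle, was on the lower level in 5 ketamine-treated and 2 saline-treated mice, at 0.243 to 0.519 CPM, and at 1.62 to 4.71 CPM in the others (LFC -0.68, -1.62 to 0.26), and Hint2 did not separate the groups (LFC 0.04, -0.37 to 0.45). Cwc22, a splicing factor, had 18.1 to 27.0 CPM in 11 mice and 182 to 757 CPM in 3 ketamine-treated and 5 saline-treated mice (LFC -1.06, -2.78 to 0.67). A830036E02Rik, AC165951.1, Rpsa-ps10 and AC102496.1 also had such gaps. For H2-T22, Srp54a, Cwc22 and these 4 genes, all 19 mice were on the same side of the widest gap in the vHipp as in the mPFC. H2-T23 had 13 and Hint2 18 of 19 mice on the same side. The myelin gene Mobp, one of the 10 genes that varied most, had 4 of 19. None of its 5 highest mice in the mPFC was among the 5 highest in the vHipp.

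**Figure D5:**
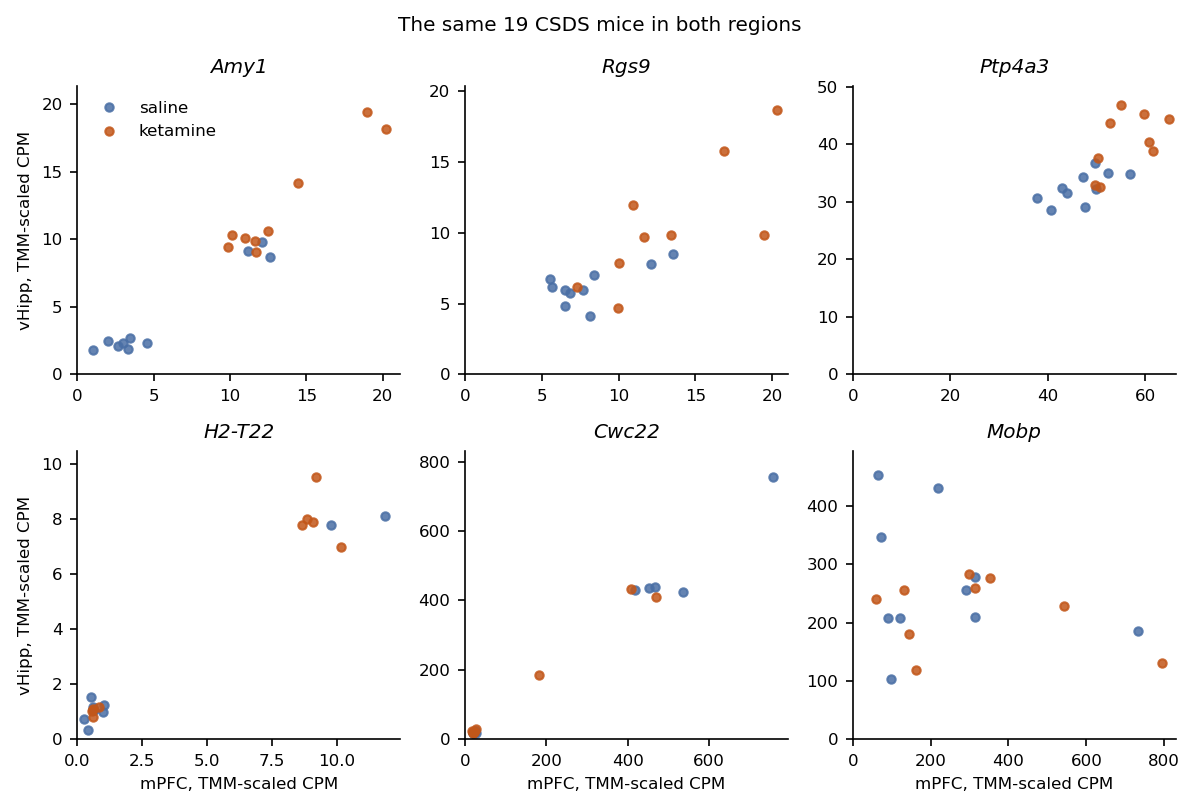
TMM-scaled CPM of 6 genes in the mPFC (horizontal) and the vHipp (vertical) of the same 19 CSDS mice, blue with saline and orange with ketamine, scaled within the fit of each region's comparison. Amy1, H2-T22 and Cwc22 form separate clusters that hold the same mice in both regions, and Rgs9, Ptp4a3 and Mobp do not.

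Whether ketamine acted differently in defeated and in undefeated mice was asked of the same fit. Of 28993 genes, 0 had an adjusted p under 0.05 for the difference between the ketamine effect in CSDS and in CTRL mPFC (0%), the lowest adjusted p was 0.771, and 1539 genes had an unadjusted p under 0.05 (5.31%). When runs of 4 mouse numbers entered as a covariate, 0 genes passed as well, edgeR gave 2073 genes at an unadjusted p under 0.05, and DESeq2 gave a lowest adjusted p of 0.131, for Pign. The CTRL mice were 10 with ketamine and 10 with saline, without CSDS. Of at least 1 CPM, the 5 genes with the smallest p were Gm26871, Gm21887, Dsn1, Mamld1 and Pign, and in each the LFCs had opposite signs in the 2 stress groups. Picking genes by the p of this difference favors opposite signs, so the signs are no separate result. Gm26871 had an LFC of -0.49 in CSDS and of 0.29 in CTRL mice (difference -0.78, SE 0.19, unadjusted p = 0.000197). For Mamld1 the values were -0.15 and 0.09 (difference -0.24, SE 0.06), for Pign -0.27 and 0.18 (difference -0.45, SE 0.12), for Dsn1, a kinetochore protein's gene, 0.33 and -0.30 (difference 0.63, SE 0.16), and for Gm21887 0.47 and -0.88 (difference 1.35, SE 0.34). Among the genes described above, Lrrcc1 (-0.28 and 0.04), Esr1 (-0.52 and 0.07), Cox6a2 (0.80 and -0.34), Crhr1 (0.21 and -0.04) and Syn3 (-0.23 and 0.09) had opposite signs. The SEs of these CTRL values were 0.07, 0.15, 0.25, 0.08 and 0.07. None of them had an unadjusted p under 0.05 in CTRL mPFC, so their signs there are uncertain. All were picked for their CSDS values. Rgs9 (0.72 and 0.12), Ptp4a3 (0.26 and 0.09), Mroh5 (0.65 and 0.17), Angpt1 (-0.50 and -0.12) and Nmnat3 (-0.41 and -0.17) had the same sign in both, and none of these differences passed adjustment.

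The ketamine effect was also compared between the 2 regions of the CSDS mice. For that difference, 0 of 28951 genes had an adjusted p under 0.05 (0%), and 750 had an unadjusted p under 0.05 (2.59%). With the mouse as a replicate block, which pairs the regions of 19 animals, it was 0 and 617 of 28872 genes. Among genes of at least 1 CPM in the mPFC, the 5 of smallest p were Fndc9, Fam83f, Fap, 5930420M18Rik and Gm38192, at 1.02 to 2.97 CPM on average. In the vHipp some of these genes were close to the floor, with medians of 0.188 CPM (ketamine) and 0.425 CPM (saline) for Fap and of 0.0902 and 0.169 CPM for Fam83f. Fap, a membrane protease, had an LFC of 0.23 in the mPFC and -0.82 in the vHipp (difference 1.037, SE 0.34), and Fndc9 of -0.25 and 0.90 (difference -1.16, SE 0.36). Several genes of smallest p in the mPFC had an LFC near 0 in the vHipp, with -0.52 and 0.05 for Esr1, -0.50 and 0.06 for Angpt1, -0.36 and -0.02 for Pot1b and -0.41 and 0.02 for Nmnat3. Those differences had unadjusted edgeR p-values of 0.0808, 0.0486, 0.0361 and 0.0262 and did not pass adjustment. The genes were picked for their mPFC values, which by itself favors a smaller LFC in the vHipp. The gap is therefore no test of a difference between regions. Others picked the same way had the same sign in both regions. The values were 0.65 and 0.84 for Mroh5, 0.72 and 0.70 for Rgs9, 0.26 and 0.33 for Ptp4a3 and -0.28 and -0.18 for Lrrcc1.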

How the data were processed

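Punches (1 mm) of mPFC and vHipp were taken from frozen brains, RNA with an integrity number of at least 8 was used, and stranded mRNA libraries were made from 100 ng. Per the labels and the submitters' processing notes, reads were processed with CASAVA and bcl2fastq 2.20.0.422 and the build was GRCm38. The aligner, the counting tool and its strand setting are not given in the sources used here. The authors deposited raw read counts per gene, and these counts were used as deposited. Of 55471 gene identifiers, 55144 matched a symbol.

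Genes with over 10 counts in total and detected in over 3 libraries were tested with edgeR 4.0.16 (R 4.3.3, TMM factors, quasi-likelihood test, two-sided, Benjamini-Hochberg adjustment, threshold 0.05) in 1 fit of the 39 mPFC libraries with 4 groups. The region comparison was fitted on the libraries of CSDS mice from both regions. The study's own model had SB as a covariate and left out 1 outlier. Runs of 4 consecutive mouse numbers were tried in its place as an alternative, since SB is not in the labels. Library measures were compared with exact permutation tests (scipy 1.17.1). CPM are TMM-scaled, and intervals are at 95%. Other alternatives were RLE factors, filterByExpr, no filter, DESeq2 1.42.0, limma-voom 3.58.1, the 19 libraries alone, and leaving out each mouse or run. The fits were tested on simulated data.

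Named genes were the 10 higher and 10 lower of smallest p and the 5 largest and 5 smallest fold changes at an unadjusted p under 0.05 (mean of at least 1 CPM), up to 4 members of each list, the NMDA subunits, the 10 most variable genes of at least 5 CPM, 4 genes known from earlier results (H2-T22, H2-T23, Srp54a and Hint2) and the 5 of smallest p in each difference of effects. The comparison, the lists and these rules were chosen with earlier results of these data known. The closest pairs of libraries differed beyond counting noise (chi-square per gene of 5.89 and 4.71). Mouse numbers pair the regions of an animal and not ketamine with saline. Deviations of the same mouse in both regions correlated with a median r of 0.218 (-0.0140 to 0.637 over 19 mice), and 12 of 19 mice correlated best with themselves. A few members of the lists are not reported here.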

Additional observations from a re-analysis of the deposited data

Results flagged for a closer look

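In 15 groups of values, 10.42% of those examined, 1 mouse lay far from the nearest other mouse for the range of its group. Chance flags about 1 in 20 groups, and many of the genes examined were chosen for a wide spread or a large difference, which raises the number. Among library measures, saline mouse 4 had 3.4502e+07 counts, ketamine mouse 1 had the highest sum of excitatory neuron markers in its group at 10655 CPM and lay at 39.4 on the second principal component. P2ry1 was at 14.2 CPM in ketamine mouse 6. Gm15564 was at 26.3 CPM in ketamine mouse 11, Gm26871 at 11.4 CPM in saline mouse 15 and Pot1b at 5.82 CPM in saline mouse 7. Dio3 was at 2.17 CPM in ketamine mouse 16 and Catsperg2 at 0.180 CPM in saline mouse 19. Gm9989 was at 0.210 CPM in ketamine mouse 6 and at 0.0594 CPM in saline mouse 4. AC102496.1 was at 0.270 CPM in ketamine mouse 11 and at 0.0599 CPM in saline mouse 19. Pecam1, an adhesion protein of endothelial cells, was at 32.6 CPM in ketamine mouse 3 and at 0.0642 CPM in saline mouse 13, where the other 18 mice had 7.30 to 32.6 CPM. In the vHipp of saline mouse 13, Pecam1 was at 0 CPM as well.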

How the results depend on the processing

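The count of 0 genes at an adjusted p under 0.05 held in 32 of 32 alternatives for CSDS mPFC, in 5 of 5 for the difference from CTRL mPFC and in 5 of 5 for the difference from the vHipp. Genes at an unadjusted p under 0.05 in CSDS mPFC numbered at most 1679 (without ketamine mouse 11) when single mice were left out, with a lowest adjusted p of 0.458 without saline mouse 8. With filterByExpr, which tests fewer genes, the 3 counts were 630, 914 and 203, and DESeq2 gave 461 for the region difference. With limma-voom, 51.3% of the 1165 genes at an unadjusted p under 0.05 were higher with ketamine, against 42.0% of the 1252 genes. Of the 4 library measures, 0 to 2 had a p under 0.05 when single mice were left out, 2 of them without saline mouse 13 or saline mouse 19. Of 47 named genes with an unadjusted p under 0.05, 23 kept it under 0.05 in all 32 alternatives and 46 kept their sign. P2ry1 had an LFC of -0.15 without ketamine mouse 6 and of up to 1.01 when another mouse was left out. The cause of these differences was not tested.

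With the mouse as a replicate block, the region difference had 0 genes at an adjusted p under 0.05 and 617 at an unadjusted one, against 726 without the block in the same 19 mice, an alternative chosen after seeing the data. The pairing changed no call. Ketamine and saline were not paired within animals, since each received 1 treatment. When runs of 4 mouse numbers entered as a block, edgeR gave 0 genes at an adjusted p under 0.05 and 1437 at an unadjusted one in CSDS mPFC, and DESeq2 gave 0 and 1129. Group sizes of 9 and 10 limit the precision, with a median SE of 0.20 on the log2 scale over all genes tested, and low genes such as Grin3b are bounded loosely.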
